A study of Mus musculus with 10 samples.

Results

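Aminoacyl-tRNA synthetases are the enzymes that attach each amino acid to its tRNA. Their genes were compared in tibialis anterior, a mostly fast-fibred muscle at the front of the shin, between mouse libraries labelled Lrtm1 KO and libraries of floxed controls. Members were taken by gene symbol: the single-letter synthetase symbols (Aars to Yars, with or without a 1 or 2), Eprs, Farsa, Farsb and Tarsl2, and the scaffold genes Aimp1 and Aimp2. This found 40 genes among the 13492 of the table, and the rule uses symbols only. They comprise 23 cytosolic members, which are 21 synthetase genes and the 2 scaffold genes, and 17 mitochondrial members. A symbol that ends in 2 was counted as mitochondrial except Tarsl2 and Aimp2, whose proteins are cytosolic. All 40 passed the minimum of a mean log2 CPM of 0 that was set for testing.

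The study sequenced polyadenylated RNA from 10 muscle libraries of mice on a C57BL/6 background, aged 6 months and fasted for 3 h. The 5 KO libraries are labelled Lrtm1 KO, and the 5 control libraries are labelled Lrtm1 WT and called Lrtm1 flox controls in the design text. The labels name no Cre driver and no deleted exon, and the design text gives a group size of 4 where the labels give 5, so all 10 were used as labelled. Litter 108 gave 2 KO and 1 control libraries, litter 110 gave 1 and 2, and litter 112 gave 2 and 2. The labels do not say that each library is a separate animal, so the p-values measure the spread between these libraries, which may be technical.

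Values are adjusted log2 CPM (log2 of counts per library total) as the authors deposited them, and the read depth behind them is unknown. Medians over all genes lay between 3.35 and 3.36 log2 CPM in the 10 libraries. All 9 fast muscle markers were in the table, with summed levels of 127000 to 132200 CPM in KO libraries and 113400 to 133400 CPM in control libraries. None of the 6 lymphocyte and neutrophil markers was in it. Lrtm1 itself went against the labels: it was higher in every library labelled KO (5.97 to 6.21 log2 CPM) than in every library labelled control (5.61 to 5.78). Its log2 difference was 0.44 (SE 0.07; adjusted p = 0.0344, limma). The labels do not say which part of the gene was deleted, and a value for the whole gene need not read that part. Every direction below therefore belongs to libraries labelled KO against libraries labelled control. In bulk muscle, fewer cells of a type and less RNA per cell cannot be told apart.

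Most synthetases recognise 1 amino acid and the tRNAs that read its codons, and the loaded tRNA brings that amino acid to the ribosome. Animal cells keep separate sets of enzymes for the cytosol and for the ribosomes inside mitochondria, most of them encoded by separate nuclear genes. In mammals, several cytosolic enzymes are held together in the multi-synthetase complex by scaffold proteins, among them those encoded by Aimp1 and Aimp2. When charged tRNA runs short, uncharged tRNA activates the kinase GCN2, and the transcription factor ATF4 that follows switches on amino acid transporters, biosynthetic enzymes and many cytosolic synthetase genes. Synthesis of protein is a large cost in muscle, and inherited defects of these enzymes affect nerve and muscle in people.

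The promoters show the part of that control that can be read in sequence, so the stretches with matches are given here. RefSeq promoters (GRCm38.p6, 250 bases before to 50 after the start of each gene) were matched by symbol for 30 members, 16 cytosolic and 14 mitochondrial. The element that C/EBP-ATF dimers bind was searched as TGATGNAA on both strands. It was in the promoters of Aars, Gars, Iars, Tars and Yars, which is 5 of 16 cytosolic genes (31.2%) and 0 of 14 mitochondrial genes. The share was 4.51% over all 27025 genes with a RefSeq promoter. Those genes were not limited to the ones measured in this muscle, here and for the 2 sequences below. Matches that lie before the RefSeq start are shown in capitals on the gene's own strand. Those of Iars and Yars lie past that start and are not shown. In GENCODE M21, used for lengths and positions below, Aars starts at 111033144, so the stretch shown for it lies inside the gene.
Aars, chr8:111033706-111033761, plus strand: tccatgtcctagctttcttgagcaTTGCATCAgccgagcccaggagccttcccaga
Gars, chr6:55037947-55038000, plus strand: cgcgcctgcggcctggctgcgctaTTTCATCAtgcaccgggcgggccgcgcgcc
Tars, chr15:11399659-11399697, minus strand: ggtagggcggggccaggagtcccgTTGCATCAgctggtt

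The core sequence of NRF1, a factor known for nuclear genes of mitochondrial proteins, was searched as GCATGCGC on both strands. It was in 3 of 14 mitochondrial promoters (21.4%), those of Rars2, Vars2 and Wars2, and in 0 of 16 cytosolic ones. The share was 3.05% over all genes with a RefSeq promoter. The stretches around it are given with the match in capitals; Vars2 holds a second copy nearer its start.
Rars2, chr4:34614882-34614937, plus strand: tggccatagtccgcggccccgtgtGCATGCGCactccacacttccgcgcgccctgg
Vars2, chr17:35667607-35667662, minus strand: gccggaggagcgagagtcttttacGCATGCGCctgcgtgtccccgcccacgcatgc
Wars2, chr3:99141002-99141057, plus strand: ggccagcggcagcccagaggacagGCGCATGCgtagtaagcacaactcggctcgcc

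The ETS core CCGGAAGT was in 3 of 16 cytosolic promoters (18.8%), those of Aimp1, Farsa and Mars1. It was also in 1 of 14 mitochondrial promoters (7.14%), that of Rars2. The share was 4.31% over all genes with a RefSeq promoter. A match describes the letters of this window and does not show that a factor binds there. Between KO and control, the log2 differences of the 5 genes with the C/EBP-ATF element ran from -0.09 to 0.12 with a median of 0.034, and those of the 11 matched cytosolic genes without it ran from -0.09 to 0.09 with a median of -0.018.

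Muscle held far more cytosolic than mitochondrial synthetase RNA per length. Levels per length are CPM per kb of the longest transcript in GENCODE M21 on GRCm38, averaged over libraries; the transcript that muscle uses may be another. The cytosolic members had a median of 19.1 CPM per kb and a range of 4.45 to 78.7. The mitochondrial members had a median of 3.46 and a range of 0.861 to 11.6, and none reached the cytosolic median. The first 16 places in the order of levels were cytosolic and the last 10 were mitochondrial.

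Aimp2, a scaffold of the multi-synthetase complex, had the highest level per length, at 76.2 ± 4.71 CPM per kb in KO and 81.1 ± 4.14 CPM per kb in control libraries (SD, n = 5 each). By library, it had 6.42, 6.53, 6.55, 6.59 and 6.38 log2 CPM in KO, against 6.62, 6.66, 6.46, 6.59 and 6.59 log2 CPM in control libraries. The groups overlapped. Nars (asparagine), Eprs (a single protein that charges glutamate and proline tRNAs) and Kars (lysine, whose gene makes both the cytosolic and the mitochondrial enzyme) came next. Their levels were 52.3 ± 1.12, 40.2 ± 0.480 and 31.4 ± 1.22 CPM per kb in KO libraries, against 53.0 ± 1.27, 40.7 ± 0.592 and 31.8 ± 2.01 CPM per kb in control libraries (SD, n = 5 each). The longest Kars transcript, of 2419 bases, has 1 exon, so the place of Kars depends on which transcript is used. With the lengths used, the first 4 places are separated by more than the spread between libraries. Dars, Tarsl2 and Gars, in the places after them, are not: each had between 23.4 and 24.8 CPM per kb in either group.

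Aimp1, the other scaffold gene, sat near the bottom of the cytosolic set at 5.63 ± 0.332 CPM per kb in KO and 5.85 ± 0.296 CPM per kb in control libraries (SD, n = 5 each). Its longest transcript, of 3958 bases, has 1 exon, so its place depends on which transcript is used. Farsa had the lowest cytosolic level, at 4.51 ± 0.0833 CPM per kb in KO and 4.38 ± 0.203 CPM per kb in control libraries (SD, n = 5 each). Its values were 3.91, 3.88, 3.91, 3.96 and 3.91 log2 CPM in KO, against 3.90, 3.83, 3.92, 3.93 and 3.77 log2 CPM in control libraries, and the groups overlapped. Farsa and Farsb encode the 2 subunits of the cytosolic phenylalanine enzyme, yet Farsb stood at 21.3 ± 0.498 CPM per kb in KO and 20.6 ± 0.642 CPM per kb in control libraries (SD, n = 5 each). The longest Farsa transcript has 3341 bases and that of Farsb 2036, so part of the gap in level per length depends on which transcript is used.

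Among mitochondrial members, Iars2 (isoleucine) and Lars2 (leucine) had the highest levels. Iars2 had 11.6 ± 0.228 CPM per kb in KO and 11.5 ± 0.312 CPM per kb in control libraries, and Lars2 had 11.9 ± 1.03 CPM per kb in KO and 10.9 ± 0.820 CPM per kb in control libraries (SD, n = 5 each), so their order is within the spread. The values of Iars2 were 6.00, 6.00, 6.03, 5.98 and 5.95 log2 CPM in KO, against 5.95, 6.00, 5.91, 6.00 and 5.99 log2 CPM in control libraries. Mars2 (methionine) had the lowest level, at 0.877 ± 0.0259 CPM per kb in KO and 0.844 ± 0.0508 CPM per kb in control libraries (SD, n = 5 each). It had 3.36, 3.28, 3.34, 3.26 and 3.29 log2 CPM in KO, against 3.23, 3.21, 3.25, 3.39 and 3.17 log2 CPM in control libraries, and the groups overlapped. Its single annotated transcript of 11294 bases is the longest of any member, which lowers its level per length.

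**Figure D1:**
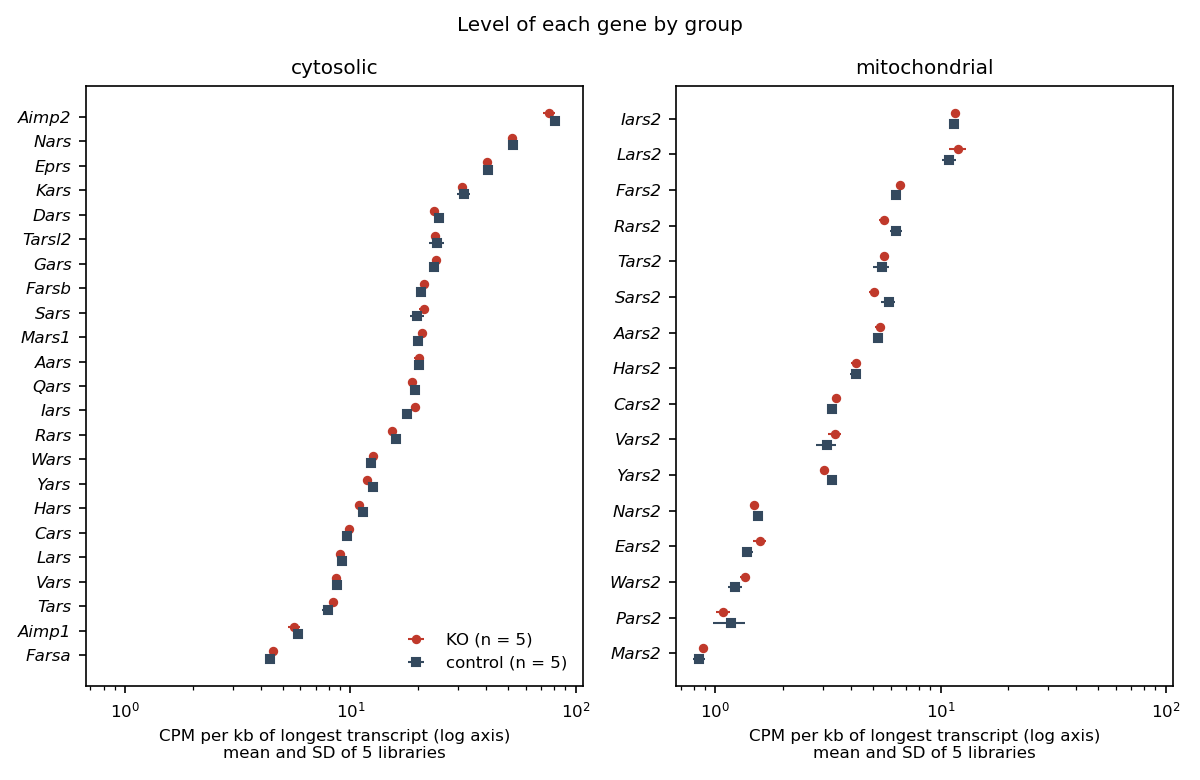
Levels of the 23 cytosolic (left) and of 16 mitochondrial members (right), as CPM per kb of longest transcript on a log axis; circles are the KO mean and squares the control mean of 5 libraries each, with SD bars. The KO and control symbols of a gene lie close together in every row, while levels run from 78.7 for Aimp2 to 0.861 CPM per kb for Mars2.

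No synthetase or scaffold gene passed the threshold between KO and control libraries. The test was limma with genotype, litter and the 3 further terms that the deposited values no longer vary along, two-sided, with Benjamini-Hochberg adjustment over all 12223 genes tested and a threshold of 0.05. It called 41 genes (0.335%), 33 higher and 8 lower in KO, and 0 of the 40 members. The smallest adjusted p of a member was 0.468, that of Sars2. In refits with 1 library left out, 1 gene (without control replicate 6) to 54 genes (without control replicate 4) were called. They called 0 members. These refits kept litter and the 3 further terms. With a library missing, those terms can overlap with genotype, and fewer residual degrees of freedom can remain. A shift in such a refit therefore need not come from the library left out. A fit of genotype and litter alone, which counts more residual degrees of freedom than the values still hold, called 1054 genes (8.62%) and again 0 of the 40 members, with a smallest adjusted p of 0.0707. Without adjustment, 1 member had a p under 0.05 (2.5%) against 10.1% of all genes, and 6 members had one in the fit of genotype and litter (15.0%) against 26.4% of all genes.

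Differences were small on both sides. Of the 40 members, 20 lay above and 20 below 0, with a median log2 difference of 0.0091 for the members (-0.0037 with CPM rescaled to 1 total in all libraries) and of -0.0041 for all genes tested. The size of the difference, without its sign, had a median of 0.048 over the members and of 0.079 over all genes tested. The 95% interval of the difference lay within 1.25-fold in either direction for 34 of 40 members, which were all 23 cytosolic members and 11 of 17 mitochondrial ones. It lay within 1.5-fold for all 40, against 10848 of the 12223 genes. Because the adjustment removed variation before deposit, these intervals may be too narrow.

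Summed over the set, the members gave 1747 ± 19.6 CPM in KO and 1745 ± 28.0 CPM in control libraries (SD, n = 5 each). The cytosolic members gave 1462 ± 16 CPM in KO and 1466 ± 24.6 CPM in control libraries. The mitochondrial members gave 285.0 ± 5.04 CPM in KO, with a range of 277.0 to 290.2, and 279.3 ± 4.44 CPM in control libraries, with a range of 274.1 to 284.9. All 3 sums overlapped between the groups. Of the deposited CPM, the members took 0.175% in KO and 0.176% in control libraries.

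**Figure D2:**
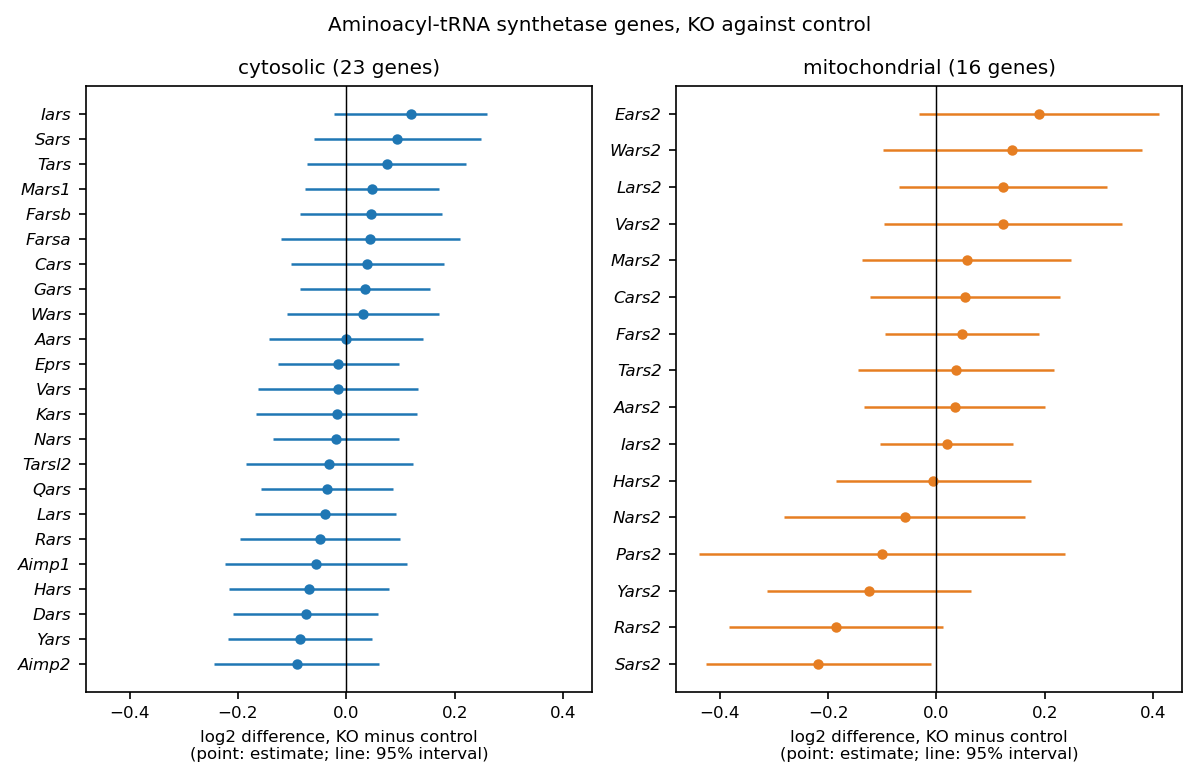
Log2 difference, KO minus control, of each cytosolic (left, 23 genes) and of 16 mitochondrial members (right); points are estimates and lines 95% intervals from the limma fit. The estimates run from -0.22 for Sars2 to 0.19 for Ears2, and the Sars2 line is the 1 that does not cross 0.

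Among the cytosolic members, 9 lay above and 14 below 0, with a median log2 difference of -0.016, which became 0.0056 without KO replicate 5. Iars, the isoleucine enzyme of the multi-synthetase complex, had the largest difference. It had 6.47, 6.45, 6.46, 6.31 and 6.42 log2 CPM in KO, against 6.23, 6.34, 6.23, 6.30 and 6.41 log2 CPM in control libraries. The highest 3 values were in KO libraries of litters 108 and 110, but the groups overlapped. Its log2 difference was 0.12 (SE 0.06; adjusted p = 0.579, limma), with 0.23 in litter 108, 0.17 in litter 110 and 0.011 in litter 112.

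Sars, the cytosolic serine enzyme, had 6.26, 6.28, 6.30, 6.16 and 6.18 log2 CPM in KO, against 6.08, 6.21, 6.01, 6.16 and 6.26 log2 CPM in control libraries. The 3 lowest values were in control libraries, and the other 2 control libraries lay among the KO values. The log2 difference was 0.09 (SE 0.07; adjusted p = 0.707, limma), with 0.19, 0.19 and -0.036 in litters 108, 110 and 112. Aimp2, whose values are given above, had the lowest difference of the set, -0.09 (SE 0.07; adjusted p = 0.712, limma). With 1 library left out it ran from -0.20 without KO replicate 3 to -0.0036 without KO replicate 5.

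Yars, the cytosolic tyrosine enzyme, was the 1 cytosolic member whose groups did not overlap. Its KO libraries held 5.08, 5.13, 5.12, 5.14 and 5.08 log2 CPM, and its control libraries 5.20, 5.24, 5.14, 5.16 and 5.24 log2 CPM. The highest KO value (5.137) and the lowest control value (5.142) were closer than the spread within either group. The log2 difference was -0.09 (SE 0.06), below 0 in all 3 litters, with an adjusted p of 0.693 (limma). Groups that did not overlap were found for 3 of 40 members (7.5%; Yars, Yars2 and Ears2) and for 16.2% of all genes tested.

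Of the 10 members that belong to the multi-synthetase complex, 2 lay above and 8 below 0, with a median log2 difference of -0.037. The 13 cytosolic members outside it had 7 above and 6 below, with a median of 0.030. The members of the complex that lay above 0 were Iars and Mars1, the methionine enzyme, at 0.12 and 0.047. The 8 below were Eprs, Kars, Qars (glutamine), Lars (leucine), Rars (arginine), Aimp1, Dars (aspartate) and Aimp2, from -0.015 to -0.09. The third scaffold gene of the complex, Eef1e1 (AIMP3), is not among the members by the symbol rule; its log2 difference was 0.12 (SE 0.12; adjusted p = 0.801, limma). None of these 10 members passed the test, and all 10 intervals lay within 1.25-fold. Gars and Kars, each of which makes the enzyme of both compartments from 1 gene, had differences of 0.034 and -0.018.

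The mitochondrial members varied more, with 11 above and 6 below 0 and a median log2 difference of 0.036, which became -0.015 without KO replicate 3 and was -0.0040 within litter 112. Their median level was lower, at 3.47 log2 CPM against 5.71 log2 CPM for the cytosolic members. The median half-width of their 95% intervals was 0.19, against 0.14 for the cytosolic members. Sars2, the mitochondrial serine enzyme (GRCm38 chr7:28741992-28753871, plus strand), had 3.15, 3.26, 3.17, 3.32 and 3.26 log2 CPM in KO libraries. It had 3.50, 3.49, 3.47, 3.26 and 3.53 log2 CPM in control libraries. Control replicate 5, of litter 112, sat within the KO range and the other 4 control libraries above it. The log2 difference was -0.22 (SE 0.09; 95% interval -0.43 to -0.010; adjusted p = 0.468, limma), with -0.30, -0.31 and -0.10 in litters 108, 110 and 112. It was -0.093 without KO replicate 3 and -0.13 without control replicate 1.

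Ears2, the mitochondrial glutamate enzyme (GRCm38 chr7:122037213-122067263, minus strand), had 2.87, 2.93, 2.93, 3.11 and 2.91 log2 CPM in KO, against 2.86, 2.75, 2.80, 2.76 and 2.64 log2 CPM in control libraries. The groups did not overlap, though KO replicate 1 and control replicate 1, both of litter 108, nearly met. The log2 difference was 0.19 (SE 0.10; adjusted p = 0.572, limma), with 0.042, 0.16 and 0.31 in litters 108, 110 and 112. It was 0.12 without KO replicate 4 and 0.35 without control replicate 1.

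Rars2, the mitochondrial arginine enzyme (GRCm38 chr4:34614957-34660167, plus strand), had 3.43, 3.41, 3.46, 3.28 and 3.33 log2 CPM in KO, against 3.49, 3.62, 3.44, 3.63 and 3.65 log2 CPM in control libraries. Only KO replicate 3 and control replicate 4, both of litter 110, crossed. The log2 difference was -0.18 (SE 0.09; adjusted p = 0.529, limma), with -0.07, -0.07 and -0.34 in litters 108, 110 and 112. It was -0.34 without KO replicate 3 and -0.32 without control replicate 1. Yars2, the mitochondrial tyrosine enzyme, had 3.13, 3.08, 3.07, 3.01 and 3.15 log2 CPM in KO, against 3.18, 3.18, 3.26, 3.20 and 3.24 log2 CPM in control libraries. Every KO value lay below every control value, and the log2 difference was -0.12 (SE 0.09; adjusted p = 0.682, limma).

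The remaining 13 mitochondrial members had log2 differences between -0.10 for Pars2 (proline) and 0.14 for Wars2 (tryptophan). Pars2 had the widest 95% interval of any member, from -0.44 to 0.24, and a low level of 1.72 ± 0.10 log2 CPM in KO and 1.82 ± 0.22 log2 CPM in control libraries (SD, n = 5 each). Wars2 had 2.57 ± 0.07 log2 CPM in KO and 2.43 ± 0.10 log2 CPM in control libraries (SD, n = 5 each). Lars2 and Vars2 (valine) both had a difference of 0.12. For Vars2, the refits with 1 library left out gave 0.0035 (without control replicate 3) to 0.32 (without KO replicate 2). Within litters 108, 110 and 112 it was 0.18, 0.099 and 0.10, so the refit range is wider than the litters show. The other 9, among them Aars2 (alanine), Iars2 and Mars2, had differences between -0.06 and 0.06.

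**Figure D3:**
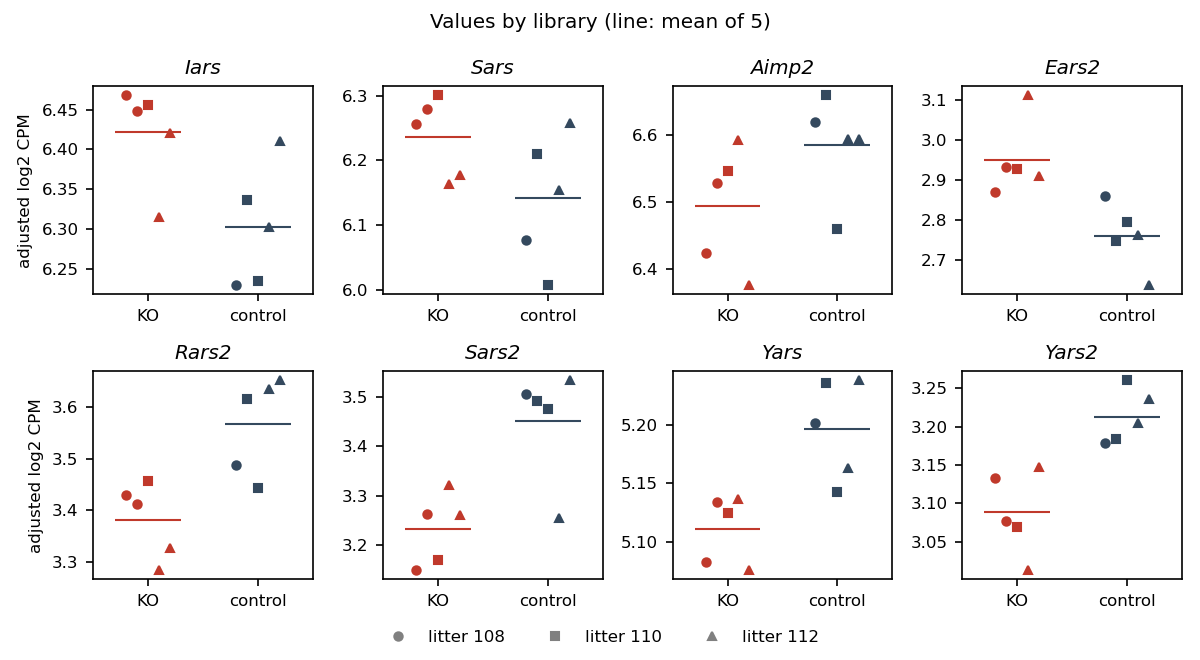
Adjusted log2 CPM of 8 members in each library, KO left and control right, with markers by litter and a line at the mean of 5; the vertical axes differ between genes. Yars, Yars2 and Ears2 separate the groups, while in Sars2 control replicate 5 (3.26) sits among the KO libraries.

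For 17 amino acids both a cytosolic and a mitochondrial gene were present. This gave 19 pairs because the phenylalanine and threonine enzymes have 2 cytosolic genes each. Eprs serves 2 of the 17 amino acids. Per kb of transcript, the cytosolic gene was the higher in 17 of 19 pairs, with a median ratio of 3.75. The exceptions were Lars and Lars2, with a ratio of 0.797, and Farsa and Fars2, with 0.687. Differences between KO and control had the same sign in 12 of 19 pairs. Tyrosine was the pair in which the groups did not overlap in either gene, with both genes lower in KO libraries.

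Serine and glutamate were the pairs whose genes were furthest apart. For serine, Sars at 0.09 and Sars2 at -0.22 were 0.31 apart on the log2 scale. The log2 ratio of Sars to Sars2 CPM was 3.00 ± 0.12 in KO libraries, with a range of 2.84 to 3.13, and 2.69 ± 0.15 in control libraries, with a range of 2.53 to 2.90 (SD, n = 5 each). The ranges overlapped. For glutamate, the log2 ratio of Eprs to Ears2 CPM was 4.88 ± 0.09 in KO libraries and 5.08 ± 0.08 in control libraries (SD, n = 5 each), with every KO value (4.72 to 4.95) below every control value (4.98 to 5.19). Eprs itself had 7.82, 7.83, 7.84, 7.83 and 7.80 log2 CPM in KO, against 7.84, 7.85, 7.81, 7.87 and 7.83 log2 CPM in control libraries, and its difference was -0.015 (SE 0.05; adjusted p = 0.950, limma). These pairs were picked for being far apart, so the gaps are descriptions.

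Transcript length moved with the differences. Over the members, Spearman's rho between the length of the longest transcript and the log2 difference was 0.582 (n = 40 genes), with 0.430 for cytosolic and 0.741 for mitochondrial members. Over all 12112 genes tested with a length it was 0.232. Genes of the same 10 libraries are not independent, and these values are descriptions. In the shortest of 5 length classes (up to 1961 bases) all genes tested had a median log2 difference of -0.039, and the 3 members in it, Aimp2, Rars2 and Sars2, all lay below 0. In the longest class (5384 bases and over) the median of all genes was 0.045. The 4 members in it had a median of 0.0091, and 2 of them lay below 0. With each library centred within length classes, the log2 difference was -0.17 for Sars2, -0.14 for Rars2, 0.17 for Ears2, 0.099 for Iars and -0.048 for Aimp2, and 0 members were called. The part of length in these differences was not tested further.

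**Figure D4:**
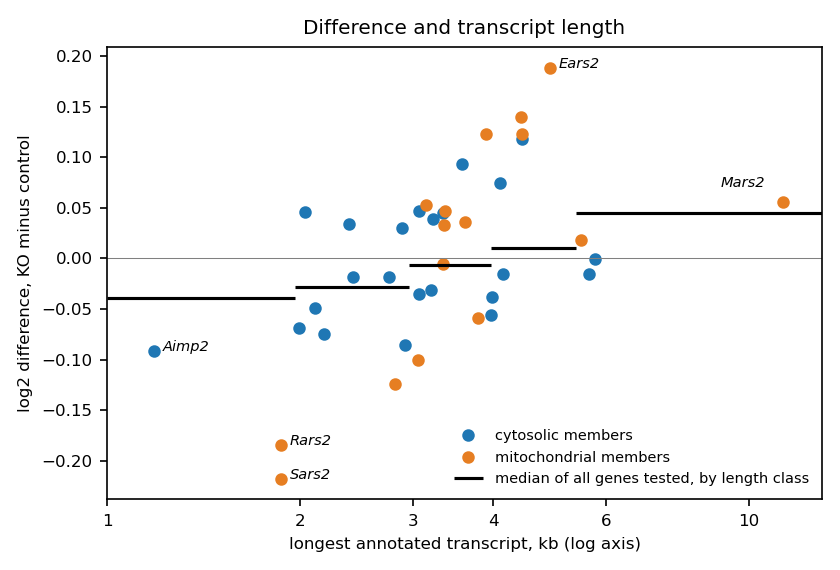
Log2 difference, KO minus control, of 39 members against the length of the longest annotated transcript in kb (log axis), with the median of all genes tested in each of 5 length classes as a black line. Sars2, Rars2 and Aimp2, the 3 shortest, lie at -0.22, -0.18 and -0.09, and the class medians run from -0.039 to 0.045.

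Several members share bases or a promoter region with a neighbour. In GENCODE M21, exons of 11 members overlap those of a protein-coding gene on the opposite strand, and those of 2 members overlap 1 on the same strand. Aimp2 shares 487 bases with Eif2ak1, Iars2 shares 2034 with Rab3gap2, Ears2 shares 89 with Ubfd1, and Mars1 shares 68 with Ddit3. On the same strand, Aars shares 1326 bases with Exosc6 and Tarsl2 shares 120 with Tm2d3. The libraries were stranded, but no source says whether the counting used the strand, so the values of these genes are uncertain to that extent. Neighbours that start within 1000 bases on the other strand were looked at after the values were seen. There were 12 such members, among them Sars2 beside Mrps12 (172 bases), Rars2 beside Orc3 (13 bases) and the cytosolic and mitochondrial histidine genes Hars and Hars2, which share a start region. Mrps12, a mitochondrial ribosomal protein gene, had a log2 difference of -0.034 (SE 0.08) and Orc3, an origin recognition gene, one of -0.055 (SE 0.07). Those of Hars and Hars2 were -0.07 and -0.0057.

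Genes that sense or follow uncharged tRNA were taken next. In the list of eIF2alpha kinases, their phosphatase and the factors around them, 1 of 16 genes rose and 0 fell. Over all genes tested, 0.335% were called. The fit of genotype and litter alone also called 1 of the 16 (6.25%, against 8.62% of all genes). The median log2 difference of the list was 0.029. The gene that rose was Impact, whose protein binds GCN1 and restrains the kinase GCN2. Impact had 4.84, 4.80, 4.88, 4.58 and 4.67 log2 CPM in KO, against 3.98, 4.18, 3.91, 4.23 and 4.23 log2 CPM in control libraries. Every KO library lay above every control library. The log2 difference was 0.65 (SE 0.10; 95% interval 0.43 to 0.87), or 1.57-fold, with an adjusted p of 0.0294 (limma). It was 0.84, 0.83 and 0.39 in litters 108, 110 and 112. Leaving out each library in turn kept the direction in 10 of 10 refits and the call in 4, with differences of 0.40 to 0.72 and adjusted p of 0.0262 to 0.536. The call was lost without KO replicate 1, 2, 3 or 5 or control replicate 1 or 6. A fit without the trend on expression gave an adjusted p of 0.304. Gcn1 and Eif2ak4, which encode GCN1 and GCN2, had log2 differences of 0.093 (SE 0.07) and 0.084 (SE 0.11), with adjusted p of 0.717 and 0.850 (limma).

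The ATF4 list had 0 of 27 genes called with the removed terms counted. The fit of genotype and litter alone called 5 higher and 2 lower (7 of 27, or 25.9%, against 8.62% of all genes), and the median log2 difference was 0.070. The summed level of the list did not overlap, at 1236 to 1276 CPM in KO and 1155 to 1207 CPM in control libraries. The sum weighs abundant genes most. Vldlr, the most abundant of the list, had 8.59 ± 0.06 log2 CPM in KO and 8.42 ± 0.04 log2 CPM in control libraries (SD, n = 5 each). Of the 27 genes tested, 19 lay above and 8 below 0. Slc7a5, a transporter of large neutral amino acids, had 1.58, 1.63, 1.65, 1.65 and 1.53 log2 CPM in KO, against 1.20, 1.24, 1.10, 1.21 and 1.21 log2 CPM in control libraries. Its log2 difference was 0.42 (SE 0.14; adjusted p = 0.321, or 0.00695 with genotype and litter alone). Aldh18a1, an enzyme of proline synthesis, had 0.38 (SE 0.13; adjusted p = 0.328, or 0.0240). On the other side, Pck2, the mitochondrial PEP carboxykinase, had 1.87 ± 0.03 log2 CPM in KO and 2.29 ± 0.09 log2 CPM in control libraries (SD, n = 5 each). Its log2 difference was -0.41 (SE 0.11; adjusted p = 0.246, or 0.00615). Ddit3, the stress factor CHOP, had -0.24 (SE 0.10; adjusted p = 0.434, or 0.0193). Atf4, named here as the regulator of the list, had 6.89 ± 0.02 log2 CPM in KO and 6.85 ± 0.04 log2 CPM in control libraries (SD, n = 5 each), a difference of 0.043 (SE 0.05; adjusted p = 0.836, limma).

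**Figure D5:**
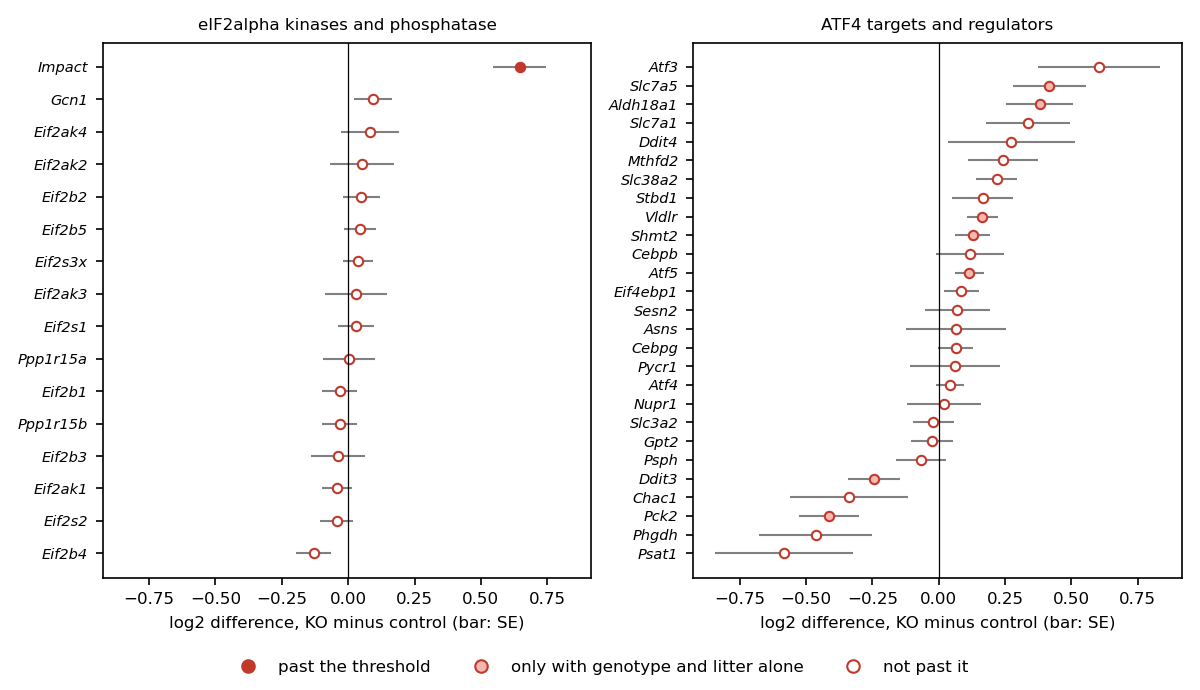
Log2 difference, KO minus control, with SE bars, of 16 genes of eIF2alpha phosphorylation (left) and 27 ATF4 targets and regulators (right); filled points passed the threshold, pale ones passed it with genotype and litter alone. Impact stands at 0.65 at the top of the left panel, and on the right the 7 pale points lie on both sides of 0.

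Genes that work beside the synthetases were not called with the removed terms counted. Among 16 partners for delivery and editing of tRNA, 0 were called, and the fit of genotype and litter alone called 2 lower (12.5%, against 8.62% of all genes). These were Prorsd1, a relative of bacterial editing domains, at -0.29 (SE 0.10; adjusted p = 0.355, or 0.0215), and Pstk, the kinase that acts on seryl-tRNA for selenocysteine, at -0.19 (SE 0.08; adjusted p = 0.413, or 0.0385). Pstk had 4.00, 3.99, 4.05, 4.04 and 3.93 log2 CPM in KO, against 4.21, 4.19, 4.15, 4.31 and 4.10 log2 CPM in control libraries, with no overlap. Among 34 genes of RNA polymerase III and tRNA processing, 0 were called, and the fit of genotype and litter alone called 1 lower (2.94%, against 8.62% of all genes), Clp1, a kinase of tRNA splicing, at -0.33 (SE 0.12; adjusted p = 0.366, or 0.0193).

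For mitochondrial translation, 0 of 20 genes of tRNA maturation and modification were called, and the fit of genotype and litter alone called 1 higher (5.0%, against 8.62% of all genes). The summed level of these 20 genes did not overlap, at 240.3 to 242.9 CPM in KO and 246.4 to 250.6 CPM in control libraries. That gene was Gatb, a subunit of the amidotransferase that forms mitochondrial glutaminyl-tRNA, with 3.65 ± 0.02 log2 CPM in KO and 3.48 ± 0.07 log2 CPM in control libraries (SD, n = 5 each). Its log2 difference was 0.18 (SE 0.08; adjusted p = 0.491, or 0.0409). This enzyme works on glutamate that Ears2 has loaded. The genes of its other subunits lay below 0, Qrsl1 at -0.11 (SE 0.10) and Gatc at -0.0425 (SE 0.06). Of 15 mitochondrial translation factors, 0 were called in either fit. The closest were the release factor gene Mtrf1l at 0.17 (SE 0.11) and the elongation factor gene Tsfm at -0.12 (SE 0.08). The median log2 difference was -0.042 for the tRNA maturation list and -0.024 for the translation factors.

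Wars, the cytosolic tryptophan enzyme, is known to be induced by interferon. Its log2 difference was 0.030 (SE 0.06; adjusted p = 0.917, limma). Of 19 interferon-inducible genes tested, 0 were called, 17 lay below 0 (6287 of the 12223 genes tested did) and the median log2 difference was -0.18. The fit of genotype and litter alone called Irf7 and Ifit2 lower (10.5%, against 8.62% of all genes), at -0.50 (SE 0.17; adjusted p = 0.350, or 0.0107) and -0.48 (SE 0.15; adjusted p = 0.282, or 0.0148). The summed level of adipocyte markers did not overlap, at 8.35 to 12.95 CPM in KO and 15.1 to 27.0 CPM in control libraries. All 5 were in the table, and 0 of 4 tested were called. The 4 tested had a median log2 difference of -0.94. The fit of genotype and litter alone called 3 lower (75.0%, against 8.62% of all genes). These were Adipoq at -0.98 (SE 0.26), Cfd at -0.62 (SE 0.14) and Lep at -2.21 (SE 0.41). The part of adipocyte RNA in the members' values was not tested.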

How the data were processed

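TRIzol extraction of tibialis anterior was followed by a stranded oligo-dT library kit, per the labels' protocols. The submitters' processing notes name fastp, kallisto and limma, without versions. No source used here gives the build, the annotation or the adjusted terms. The deposited values are adjusted log2 CPM, in a single table of 13492 genes and 10 libraries. Depth is unknown, so no counting interval is given.

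With genotype in the fit, the largest litter difference in any deposited log2 value was 6.65e-14, so litter had been removed with genotype kept. Residuals spanned 3 of the 6 dimensions left, so 3 further terms had been removed. These were counted in limma 3.58.1 under R 4.3.3 (lmFit, eBayes with trend; genotype, litter, removed terms; 12223 genes with mean log2 CPM of at least 0, 1269 left out; Benjamini-Hochberg, 0.05). The fit was tested on simulated data. SDs and SEs lack the removed variation. Exact permutation of labels was not used, because values adjusted with the labels kept are not exchangeable. Summed levels and levels per kb were taken on CPM converted back from log2.

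Lengths, exons and positions were those of GENCODE M21 (GRCm38), found by Ensembl identifier for 98.7% of genes; promoters came from RefSeq. The members and lists were chosen with earlier results of these data known. Values per library are given for the 3 largest differences in each set, the most and least abundant member of each set and the 2 widest pairs, and for members called. Of each list, up to 4 genes past the threshold in either fit, or the 2 with the smallest p, are named. Yars, Yars2, Atf4, Vldlr, Eef1e1, Gcn1, Eif2ak4, Qrsl1, Gatc, overlapping genes and neighbours were named after their values were seen. Alternatives were other terms, minimums, a pseudocount of 1, no trend, 2 other scalings, length centring, the compartment split, each library left out, and single litters. Values of 1 mitochondrial member are not reported here; it is in the counts, sums and medians.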

Additional observations from a re-analysis of the deposited data

Results flagged for a closer look

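Each member was examined in each group of 5 libraries for a lowest or highest value far from the rest, with a critical gap of 0.71 of the range. Of 80 groups, 6 were past it. A rate of about 1 in 20 would apply to independent values. These values are not independent, because litter and 3 further terms were removed and the groups share libraries. Control replicate 5 held 5 of the 6. It was the highest control library for Tars (5.14 log2 CPM), Nars (7.24 log2 CPM) and Tarsl2 (6.45 log2 CPM), and the lowest for Wars (5.05 log2 CPM) and Sars2 (3.26 log2 CPM). KO replicate 4 was the highest KO library for Ears2 (3.11 log2 CPM). Both libraries belong to litter 112.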

How the results depend on the processing

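Leaving out single libraries gave 11, 21 and 17 called genes without KO replicate 2, 3 or 5, and 5, 24 and 1 without control replicate 1, 3 or 6, against 41 with all 10 and 54 without control replicate 4. No member was called in any of these 10 refits, but leaving out KO replicate 3 or control replicate 1 removes the contrast of litter 110 or litter 108. Counts of genes called were 1054 with genotype and litter alone, 2608 with genotype alone and 1 with no trend. With genotype alone, 1 cytosolic member (Yars, adjusted p = 0.0363) and 4 mitochondrial members (Ears2, Yars2, Rars2 and Sars2) were called by limma; that fit counts neither litter nor the removed terms. Correlations of same-numbered deviations from the group mean were -0.846, 0.452, 0.0316 and -0.502 for numbers 1, 3, 4 and 5. Because litter and further terms were removed before deposit, these values cannot show whether replicate numbers pair the libraries. The replicate block called 127 genes and 0 members. The cytosolic median was -0.029 with CPM rescaled, -0.028 with length classes centred, -0.0034, -0.00090 and -0.034 in litters 108, 110 and 112, and -0.033 to 0.0056 with 1 library left out. The mitochondrial median was 0.055 in litter 110, -0.0040 in litter 112, and -0.015 to 0.049 with 1 library left out. Splitting by the last character of the symbol called 0 members. The cause of these shifts was not tested.

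Signs turned for Aars in the replicate block (0.023), and with length classes centred for Kars (0.0032), Nars (0.0031), Mars2 (-0.00010) and Iars2 (-0.037). With 1 library left out, the sign of 25 members with values given here turned at least once. These refits kept litter and the 3 further terms, which can overlap with genotype once a library is missing. A turn of sign therefore need not come from the value of the library left out. Cytosolic ranges were -0.0040 to 0.17 for Iars, -0.036 to 0.16 for Sars, -0.033 to 0.12 for Tars, -0.010 to 0.067 for Mars1, -0.00010 to 0.12 for Farsa, -0.014 to 0.11 for Cars, -0.0064 to 0.098 for Wars, -0.11 to 0.053 for Aars, -0.053 to 0.0057 for Eprs, -0.077 to 0.12 for Vars, -0.15 to 0.052 for Kars, -0.065 to 0.0033 for Nars, -0.17 to 0.033 for Tarsl2, -0.058 to 0.011 for Lars, -0.18 to 0.0056 for Rars, -0.12 to 0.095 for Aimp1 and -0.12 to 0.0030 for Dars. Mitochondrial ranges were -0.11 to 0.22 for Lars2, -0.015 to 0.13 for Mars2, -0.069 to 0.12 for Tars2, -0.037 to 0.11 for Aars2, -0.052 to 0.049 for Iars2, -0.095 to 0.058 for Hars2, -0.12 to 0.055 for Nars2 and -0.35 to 0.033 for Pars2. Among the other members reported, whose sign held, the ranges were 0.0073 to 0.13 for Farsb, 0.0090 to 0.050 for Gars, -0.085 to -0.0034 for Qars, -0.13 to -0.032 for Hars, -0.14 to -0.048 for Yars, -0.20 to -0.0036 for Aimp2, 0.12 to 0.35 for Ears2, 0.051 to 0.28 for Wars2, 0.0035 to 0.32 for Vars2, 0.031 to 0.11 for Cars2, 0.0064 to 0.073 for Fars2, -0.18 to -0.086 for Yars2, -0.34 to -0.14 for Rars2 and -0.29 to -0.093 for Sars2. All of these members missed the threshold in every one of those refits.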
